A study of Oryza sativa with 239 samples.

Results

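Irrigated leaves of the rice line KP were compared with irrigated leaves of the line IR64. The comparison rests on the 6 control libraries whose titles name these lines, 3 of KP and 3 of IR64, out of 239 libraries in the series. The 6 drought libraries of the same lines, 3 each, served as a check of the same genes in other libraries. The libraries were taken by their titles alone.

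Messenger RNA of rice (*Oryza sativa*) leaves was sequenced in 40 cultivars and lines, on day 5 of a treatment in a growth chamber. The youngest fully expanded leaf and the next older one were taken. Control plants were irrigated throughout, and drought plants were drained. The labels abbreviate KP, which is read here as Kinandang Patong, an upland variety that is the known donor of a root-angle locus, DRO1, on the long arm of chromosome 9. IR64 is a widely grown variety of irrigated paddies, and Dro1-NIL is read as IR64 carrying that locus from Kinandang Patong. The groups used below were KP control, IR64 control, KP drought, IR64 drought and Dro1-NIL control with 3 libraries each, and Dro1-NIL drought with 2. The sample labels call the drought moderate, whereas the treatment protocol in the same labels describes a severe drought with later rewatering. Neither affects the irrigated plants, but the severity of the drought behind the check is uncertain. Seedlings stood in separate pots, but the labels do not state that each library came from a different plant or from a separate growth run. The p-values therefore measure the spread between these libraries.

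Cultivated rice has a deep split into indica and japonica groups, which arose from differing wild stocks and have many sequence differences, including genes present in one group and missing from the other. IR64 is an indica variety. Upland varieties of the Philippines such as Kinandang Patong are commonly grouped with tropical japonica. The genome build named for these data, IRGSP-1.0, is the sequence of Nipponbare, a japonica variety. Reads of every line were thus counted on a japonica genome, so a gene that IR64 lacks, or whose IR64 copy differs too much in sequence for reads to be placed, would give the same low count as a gene that is silent. The part of this in any difference below was not tested.

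The control libraries held 13.4, 19.2 and 15.9 M assigned reads (M, 1000000 reads) in KP and 13.1, 15.0 and 18.9 M in IR64. The drought libraries held 17.3, 17.5 and 7.92 M in KP and 21.6, 17.5 and 4.39 M in IR64, so replicate 3 of each drought group was shallower than its partners. Replicates of a control group correlated at 0.986 to 0.991 across genes on the log2(CPM + 1) scale, where CPM is the read count per 1000000 reads of the library size after TMM scaling (trimmed mean of M-values). A KP and an IR64 control library correlated at 0.872 to 0.886 over the 9 possible pairs. The table named genes by identifiers of the form LOC_Os08g35420, whose first digits give the chromosome and whose last digits give the order along it. The reference table paired 1 of the 55986 identifiers with a gene, so the genes below are given by identifier and chromosome with no function. For the same reason markers of leaf cells and of other tissues, and lists of pathway genes, could not be looked up.

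Irrigated leaves of the lines differed in the level of many genes, in both directions. Of 22355 tested genes, 5654 differed between KP and IR64 in control leaves (25.3%), by edgeR's quasi-likelihood test at a Benjamini-Hochberg adjusted p under 0.05 and a fold of at least 2. KP was higher for 3094 of them (13.8% of tested genes) and lower for 2560 (11.5%). With no minimum on the fold, 9672 genes passed (43.3%), of which 5155 were higher (23.1%) and 4517 lower (20.2%) in KP. The median log2 fold change over all tested genes was 0.02, and the median size of the change regardless of sign was 0.48.

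Many of the differences were far larger than the spread between replicates. The genes called higher in KP had a median log2 fold change of 2.78, and those called lower had −2.51. The median standard error of a called gene, worked back from its fold change and test statistic, was 0.45 on the same scale. The coefficient of variation of a tested gene between replicates had a median of 13.2% in KP and 15.8% in IR64. In 5518 of the called genes every KP control library lay on the same side of every IR64 control library, against 12550 such genes among all tested (56.1%). The other 136 called genes overlapped. A fitted fold change has no fixed meaning where a line has 0 reads, which was so for 610 of the genes called higher and 477 of those called lower. With 3 reads over the 3 libraries put in place of 0, the medians were 2.71 and −2.46, and 1051 genes were at least 16 times higher and 620 at least 16 times lower in KP.

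**Figure D1:**
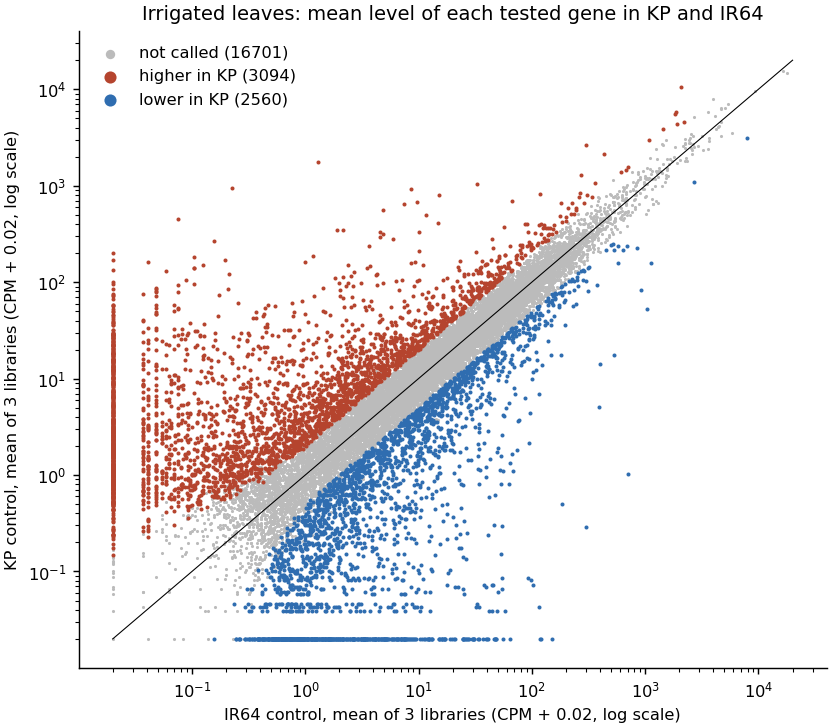
Mean level of each of the 22355 tested genes in KP control leaves (vertical) and IR64 control leaves (horizontal), in CPM with 0.02 added, both axes logarithmic. Red points are the 3094 genes called higher in KP, blue points the 2560 called lower and grey points the rest; points along the left and bottom edges had no reads in IR64 or KP.

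The share of tested genes that differed was highest in the class of the lowest levels. Among 3342 tested genes with a mean under 1 CPM over the 6 control libraries, 1544 were called (46.2%), with a median fitted size of change of 4.04 on the log2 scale. The lower line had 0 reads for 570 of these 1544, and with 3 reads in their place the median was 3.27. A gene this weak could pass the filter on low counts through a single group with more reads, so the share called in this class is no measure of weak genes as a whole. Between 1 and 10 CPM 35.2% of 7471 genes were called, and between 10 and 100 CPM 13.4% of 9689 genes. Among the 1853 genes of at least 100 CPM, 185 were called (9.98%), with a median size of 1.43. KP was the higher line for 64.3% of these 185 abundant genes and the lower for the other 66. In the class under 1 CPM the directions were nearly even, with 765 higher and 779 lower in KP.

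Some genes were near-silent in one line and among the abundant messages of the other. LOC_Os08g35420 on chromosome 8 stood at 804, 2664 and 1861 CPM in the KP control libraries, against 1.08, 1.15 and 1.60 CPM in those of IR64. The 3 KP libraries spread over a factor that is small beside the gap between the lines, and the log2 fold change was 10.41 ± 0.72 (SE; adjusted p 4.78e-09, edgeR quasi-likelihood test). In control leaves of the other 37 cultivars its mean ran between 5.4 and 2449 CPM with a median of 98.9, so the IR64 level lay below that of each of these cultivars.

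LOC_Os11g17290 on chromosome 11 gave 334, 332 and 383 CPM in KP, against 2.00, 1.91 and 1.75 CPM in IR64. Replicates were tight in both lines, and the log2 fold change was 7.54 ± 0.21 (SE; adjusted p 2.63e-13 by edgeR). In the other cultivars this gene was at 1 CPM or more in 12 of 37. Koshihikari, a japonica variety of Japan, had 418 CPM.

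In the opposite direction, LOC_Os12g09720 on chromosome 12 gave 0.797, 0.809 and 1.42 CPM in KP, against 842, 585 and 702 CPM in IR64. The log2 fold change was −9.44 ± 0.46 (SE; adjusted p 5.81e-11 by edgeR), and 17 of the other 37 cultivars had at least 1 CPM. KP itself averaged 1.01 CPM, and 28 of the 37 were nearer to KP than to IR64. LOC_Os02g36140 on chromosome 2 had 2.87, 6.01 and 6.17 CPM in KP, against 457, 428 and 278 CPM in IR64, a log2 fold change of −6.25 ± 0.40 (SE; adjusted p 1.71e-09 by edgeR). Here 28 of the other 37 cultivars had at least 1 CPM and their median was 241 CPM.

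The most abundant genes that differed had smaller fold changes. LOC_Os05g11320 on chromosome 5 was the highest of them. It stood at 13379.7, 9012 and 9478 CPM in KP, against 2365, 1693 and 2137 CPM in IR64. Its log2 fold change was 2.36 ± 0.26 (SE; adjusted p 1.18e-06 by edgeR). LOC_Os01g45274 on chromosome 1 averaged 5844 ± 831 CPM in KP and 1864 ± 1270.3 CPM in IR64 (SD, n = 3 each). Its IR64 libraries, at 3282, 1482 and 829 CPM, were far from each other, and the log2 fold change of 1.65 had an adjusted p of 0.0227 by edgeR. That call was lost when any of 3 libraries was left out: 1.51 with adjusted p 0.0748 without IR64 control replicate 2, 1.29 with 0.0965 without IR64 control replicate 3 and 1.54 with 0.0587 without KP control replicate 3.

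Among abundant genes lower in KP, LOC_Os01g01340 on chromosome 1 had 3229, 3143 and 3024 CPM in KP, against 8476, 6925 and 8349 CPM in IR64 (log2 fold change −1.34 ± 0.19 SE; adjusted p 2.87e-05 by edgeR). LOC_Os08g04450 on chromosome 8 had 1156, 999 and 1123 CPM in KP, against 2797, 2641 and 2579 CPM in IR64 (log2 fold change −1.29 ± 0.15 SE; adjusted p 1.93e-06 by edgeR). In both genes the lines were well apart.

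The single identifier that the reference table named was LOC_Os01g19850 on chromosome 1, a cation-chloride cotransporter (OsCCC2), a membrane protein that moves chloride together with potassium or sodium. It had 1.12, 1.39 and 0.678 CPM in KP, against 1.16, 1.79 and 1.19 CPM in IR64. The ranges overlapped, and the log2 fold change of −0.37 ± 0.33 (SE) had an adjusted p of 0.385 by edgeR.

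A smaller group of genes was read in one line and not at all in the other. Genes were counted here if each of the 3 control libraries of a line had at least 1 CPM and the 3 control libraries of the other line together had 0 reads. There were 396 such genes with reads in KP and 221 with reads in IR64, so KP was the line with reads in 64.2% of the 617. They were 2.22% of the 17810 genes whose KP control libraries all reached 1 CPM and 1.27% of the 17334 such genes of IR64. Summed depth was similar, at 48.5 M reads in KP and 46.97 M in IR64. After the 6 libraries were thinned to an equal 13067770 reads, the counts were 395 and 230. The lists share the condition of 0 reads with the test, so all 617 were called and no test of them is given.

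Most of these genes were modest in level, with a median of 5.14 CPM for the KP-only genes and 4.55 CPM for the IR64-only genes. At least 10 CPM was reached by 139 KP-only and 56 IR64-only genes, and at least 100 CPM by 3 of each. The highest KP-only gene was LOC_Os11g14544 on chromosome 11, with 175, 223 and 203 CPM in KP, against 0 reads in IR64. With 3 reads in place of the 0 of IR64, its KP level was higher by a factor of at least 3145. LOC_Os10g36260 on chromosome 10 had 157, 154 and 193 CPM in KP, against 0 reads in IR64, and was at least 2635-fold higher. The highest IR64-only gene, LOC_Os08g08655 on chromosome 8, had 0 reads in KP, against 166, 123 and 162 CPM in IR64, and was at least 2238-fold lower in KP. LOC_Os10g39130 on chromosome 10 had 0 reads in KP, against 111.2, 131 and 116.7 CPM in IR64, and was at least 1779-fold lower. These limits cover counting error alone.

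The drought libraries gave the same picture for the one-line genes. Of the 396 KP-only genes, 321 (81.1%) again had 0 reads over the 3 IR64 drought libraries, and none exceeded 7 reads. At least 1 CPM in each of the 3 KP drought libraries was found for 346 (87.4%), and 281 (71%) met both conditions. Of the 221 IR64-only genes, 175 (79.2%) had 0 reads over the KP drought libraries, with at most 14 reads in any gene. At least 1 CPM in each IR64 drought library was found for 200 (90.5%), and both conditions held for 156 (70.6%). LOC_Os11g14544 had 197, 182 and 274 CPM in KP drought leaves, against 0, 0.288 and 0 CPM in IR64 drought leaves. LOC_Os08g08655 again had 0 reads in KP drought leaves, against 149, 123 and 141 CPM in IR64 drought leaves.

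**Figure D2:**
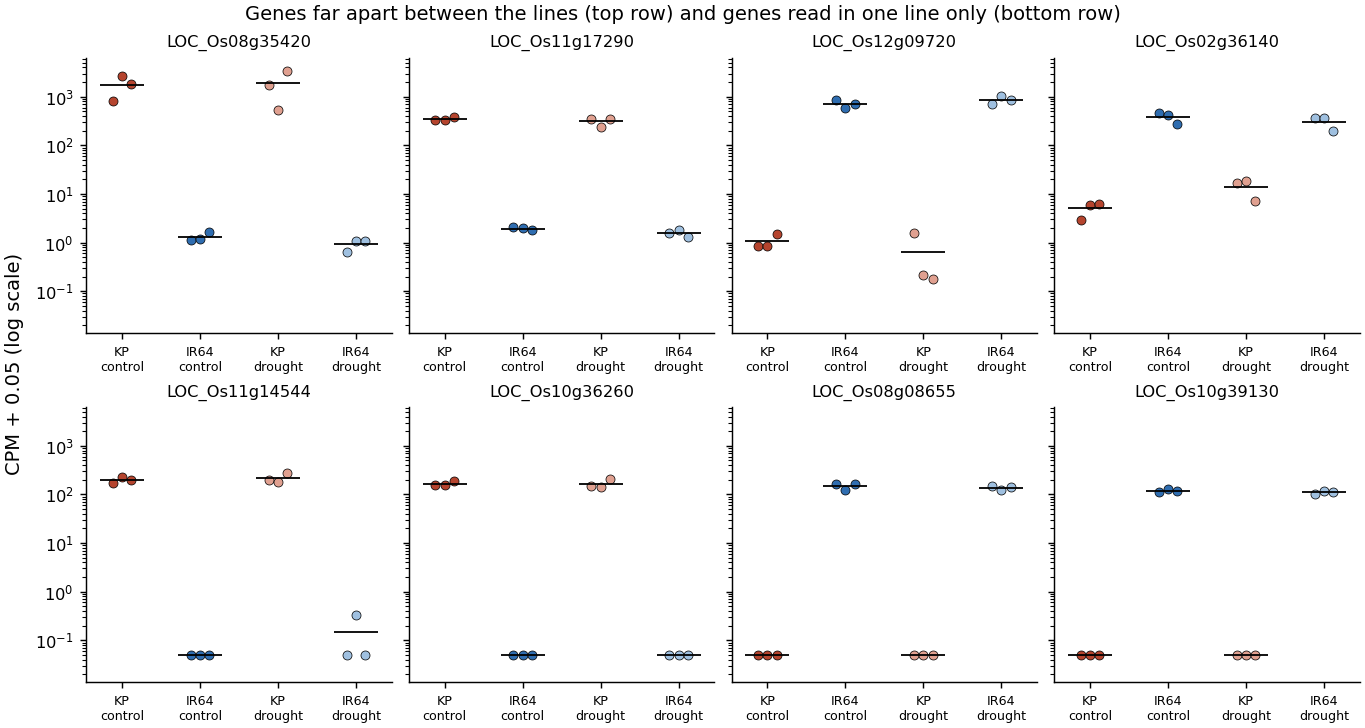
Level of 8 genes in CPM with 0.05 added, on a log scale; each point is a library and each bar the mean of 3, with KP control, IR64 control, KP drought and IR64 drought from left to right. The top row holds the genes furthest apart among those with at least 10 reads in every control library of the lower line, such as LOC_Os08g35420. The bottom row holds the most abundant genes read in one line only. The gap between the lines recurs in the drought libraries of every panel.

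Most of the one-line genes stood alone in identifier order, and a smaller part lay side by side. Among the 20840 identifiers with at least 1 CPM in any control library of either line, the 396 KP-only genes formed 336 runs of neighbours. Of these runs, 43 held at least 2 genes and 11 held at least 3. The longest run, of 6 genes, went from LOC_Os12g12090 to LOC_Os12g12140 on chromosome 12. The 221 IR64-only genes formed 204 runs, of which 15 held at least 2 genes. The longest of these, of 3 genes, went from LOC_Os07g31110 to LOC_Os07g31194 on chromosome 7. The number of such runs under a random order of the identifiers was not computed. Whether one-line genes lay together more often than by chance was therefore not tested.

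The genes that differed were spread over all 12 chromosomes, at unequal density. Chromosome 11 had the highest share called, 493 of 1276 tested genes (38.6%), followed by chromosome 10 with 32.5% and chromosome 12 with 31.8%. Chromosome 3 had the lowest, 498 of 2800 (17.8%), and chromosome 2 followed with 20.6%. One-line genes followed a similar order, with 5.56 per 100 tested genes on chromosome 12, 5.02 on chromosome 11 and 1.54 on chromosome 3. The directions were close to even on chromosome 11, with 246 genes higher and 247 lower in KP. On chromosome 2 KP was higher for 323 and lower for 216.

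Along the chromosomes the share varied more. The tested genes were cut in identifier order into 222 windows of about 100 genes, in which the median share called was 23%. The densest window, from LOC_Os04g13580 to LOC_Os04g18790 on chromosome 4, had 56%, with 45 genes higher and 11 lower in KP. Its neighbours on chromosome 4 had 46% on one side and 49% and 42% on the other. A window on chromosome 10, from LOC_Os10g19200 to LOC_Os10g22394, had 55%, with 47 genes higher and 8 lower in KP. In a window near the end of chromosome 11, from LOC_Os11g42070 to LOC_Os11g45290, 54% were called and the balance was the other way, with 20 genes higher and 34 lower. The sparsest window, from LOC_Os02g02700 to LOC_Os02g04130 on chromosome 2, had 4%. These places depended on the settings. With windows of 50 genes the densest lay on chromosome 11, at 68%, and with no fold minimum on chromosome 6, at 69%. The sparsest lay on chromosome 3 with windows of 200 genes, at 11%, and on chromosome 4 with no fold minimum, at 21%. In windows of 100 genes at a fold of at least 2, 24 windows had at least 40% called and 6 had under 10%.

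The same windows stood out in the drought libraries, where the window on chromosome 4 had 63% called and the one on chromosome 2 had 10%. Across the 222 windows the shares in control and in drought leaves correlated at 0.938, as a description. The group means compared come from separate libraries, but both comparisons use the same genes, lines and estimate of the spread.

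**Figure D3:**
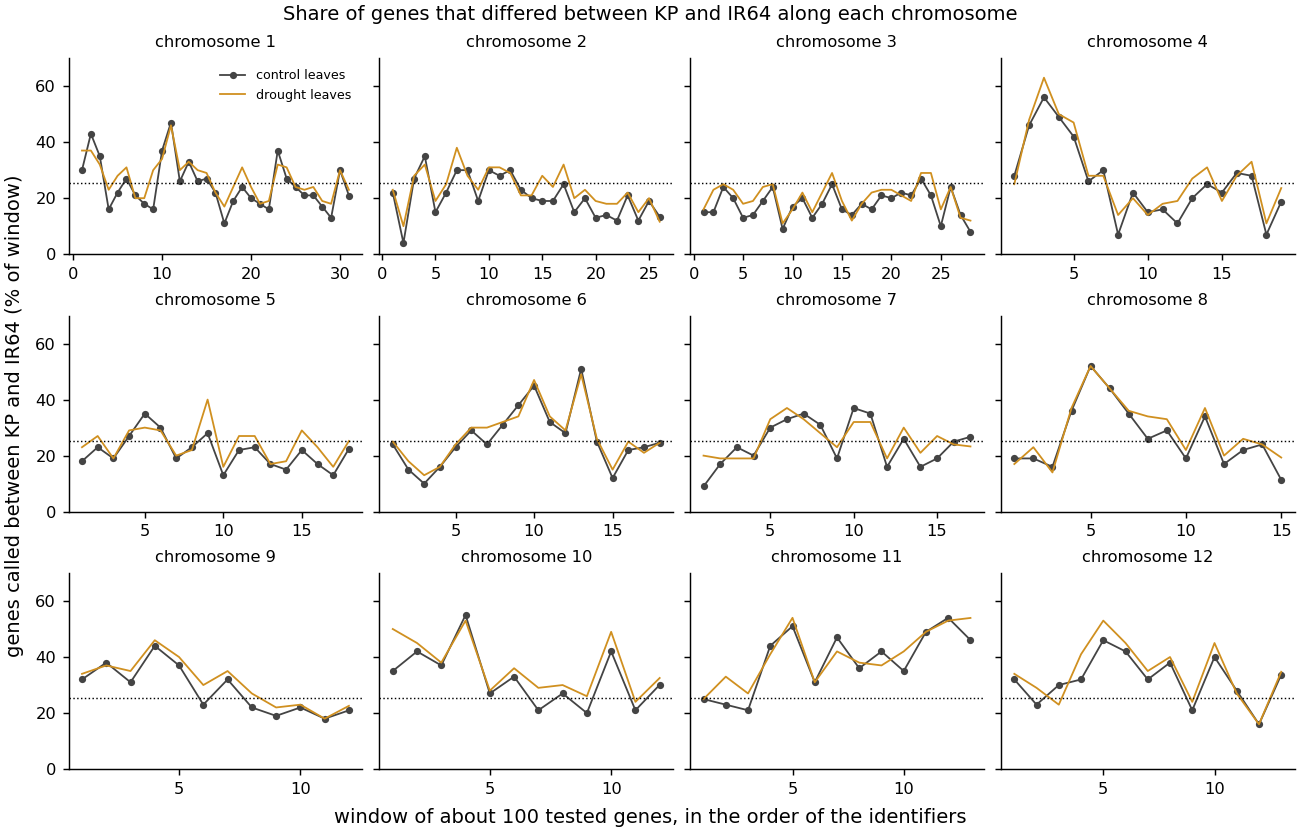
Share of genes called between KP and IR64 in consecutive windows of about 100 tested genes, in identifier order, 1 panel per chromosome; black points are control leaves, the orange line is drought leaves and the dotted line the 25.3% of all tested genes in control leaves. The peaks on chromosomes 4, 10 and 11 and the trough on chromosome 2 appear in both treatments.

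Nearly all genes called in control leaves kept their side in drought leaves, and most of them were called again. In drought leaves 6183 of 22355 genes were called between KP and IR64 (27.7%), with 3677 higher (16.4%) and 2506 lower (11.2%) in KP. Of the 5654 genes called in control leaves, 5545 (98.1%) had the same sign in drought leaves, 4926 (87.1%) also passed the adjusted p and 4584 (81.1%) met the full rule again in the same direction. Over all tested genes, 81.7% had the same sign and 26.6% were called in drought leaves with the sign they had in control leaves. Genes higher in KP in control leaves were called again in 84.3% of cases, and genes lower in KP in 77.1%. There were 14 genes called in both treatments with opposite signs, 13 of which were lower in KP in control leaves. Both comparisons came from a single fit with a shared estimate of the spread. With control and drought leaves fitted apart, from 6 libraries each, 4544 of the 4804 genes called in control leaves were also tested in drought leaves. Of these 4544, 98.3% had the same sign and 81.1% were called again, beside 81.7% and 23.4% of the 19864 genes tested in both.

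Recurrence depended on the size of the control difference. Of genes between 2-fold and 4-fold higher in KP in control leaves, 65% were called again in drought leaves, and of those between 2-fold and 4-fold lower, 60.5%. At a fitted fold of 16 or more these shares were 98.5% and 94.9%. The median log2 fold change of the genes called higher in KP was 2.78 in control leaves and 2.92 in drought leaves, and that of the genes called lower −2.51 in control leaves and −2.22 in drought leaves. With 3 reads in place of 0 the drought medians were 2.80 and −2.14. The fold changes of all 22355 genes in the 2 treatments correlated at 0.937 across genes, which are not independent replicates.

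**Figure D4:**
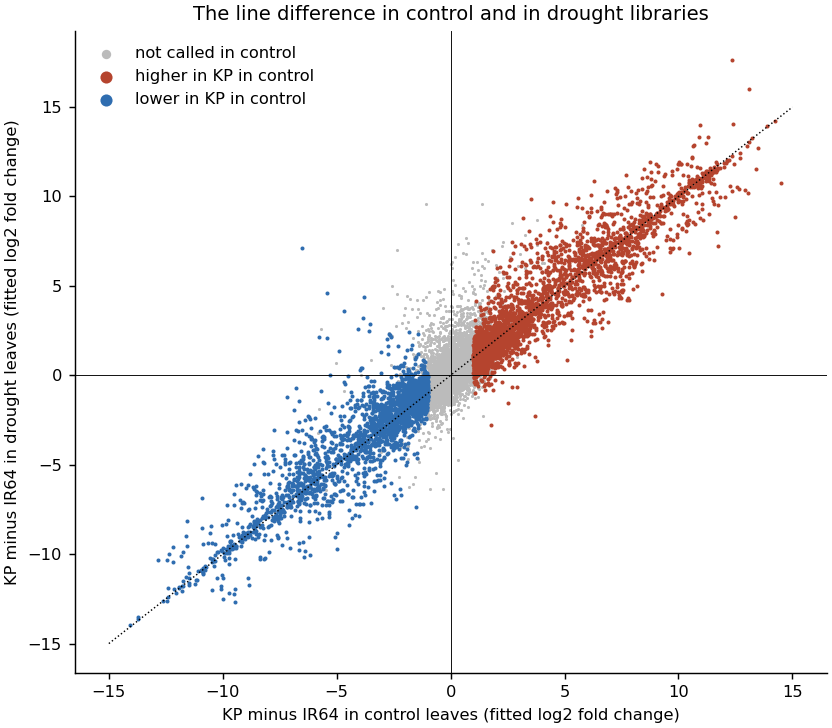
Fitted log2 fold change of KP over IR64 in control leaves (horizontal) and in drought leaves (vertical) for the 22355 tested genes; red and blue points are genes called higher and lower in KP in control leaves, and the dotted line marks equal values. The called genes lie along the dotted line, with 98.1% of them on the same side of 0 in both treatments.

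The genes named above for low levels in one line and high levels in the other kept the direction of their differences. LOC_Os08g35420 had 1772, 525 and 3452 CPM in KP drought leaves, against 0.605, 1.04 and 1.04 CPM in IR64 drought leaves. LOC_Os11g17290 had 341, 237 and 354 CPM, against 1.54, 1.79 and 1.25 CPM. LOC_Os12g09720 had 1.49, 0.164 and 0.131 CPM in KP drought leaves, against 694, 1043 and 873 CPM in IR64 drought leaves. LOC_Os02g36140 was less far apart than in control leaves, with 16.4, 18.9 and 7.21 CPM in KP and 360.5, 366 and 194 CPM in IR64. Its log2 fold change was −4.40 in drought leaves, and the difference from the control value had an adjusted p of 0.109 by edgeR.

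Of the abundant genes, LOC_Os05g11320 averaged 14812 ± 4491 CPM in KP drought leaves and 4005 ± 704 CPM in IR64 drought leaves. LOC_Os01g01340 averaged 2899 ± 764 and 7261 ± 444 CPM in the same order of lines, and LOC_Os08g04450 649 ± 52.2 and 2392 ± 227 CPM (SD, n = 3 each). LOC_Os01g45274, whose control call rested on single libraries, had 1093, 607 and 1539 CPM in KP drought leaves, against 2149.8, 1771 and 364 CPM in IR64 drought leaves. These overlapped, and the log2 fold change was −0.41 with an adjusted p of 0.569 by edgeR.

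There were 1585 genes called in drought leaves that were not called in control leaves. Of these, 409 had passed the adjusted p in control leaves with a fold under 2, and 1176 had not. LOC_Os01g41710 on chromosome 1 belongs to the last group. It had 77.7, 99 and 157 CPM in KP drought leaves, against 1509, 1669.8 and 772 CPM in IR64 drought leaves, a log2 fold change of −3.57 ± 0.72 (SE; adjusted p 0.000671 by edgeR). Its control libraries were too scattered to separate the lines, at 1046, 2363 and 3569 CPM in KP, against 6327, 879 and 2454 CPM in IR64. Every KP control library lay above the KP drought libraries, whereas control and drought libraries of IR64 overlapped. LOC_Os02g40130 on chromosome 2 had 9.10, 8.29 and 1.97 CPM in KP drought leaves, against 0 reads in IR64 drought leaves, and was at least 93.8-fold higher. In control leaves it was weak in both, at 0.319, 0.347 and 0.678 CPM in KP, against 0.166, 0.128 and 0.206 CPM in IR64.

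The remaining genes named by the same rule rested on single libraries. LOC_Os02g44530 on chromosome 2 had 0.266, 0.218 and 0.131 CPM in KP drought leaves, against 53.7, 0.865 and 0 CPM in IR64 drought leaves. Its log2 fold change of −6.37 was −1.40 with an adjusted p of 0.162 by edgeR without IR64 drought replicate 1. LOC_Os09g36700 on chromosome 9 had 17.9, 0.545 and 0.131 CPM in KP drought leaves, against 0 reads in IR64 drought leaves. Its control libraries, at 5.74, 0.867 and 5.29 CPM in KP and 0.0832, 24.0 and 0.774 CPM in IR64, showed the same scatter. Its fitted log2 fold change of 9.55, with an adjusted p of 0.0409 by edgeR, was 5.54 with 0.416 without KP drought replicate 1. The adjusted p was 0.115, 0.109 and 0.0608 without IR64 drought replicate 1, 2 or 3, 0.0552 with the replicate number as a block and 0.0529 without the shallow drought libraries.

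Whether the difference between the lines itself changed with drought was tested as an interaction. It passed an adjusted p under 0.05 for 89 of 22355 genes (0.398%), with 69 moving up and 20 down in KP relative to IR64. At an unadjusted p under 0.05 there were 2309 genes, where an even spread of p-values would give 1118. The count of 89 hung on single libraries. It was 8, 13 and 34 without KP control replicate 1, 2 or 3, and 18 and 5 without IR64 control replicate 2 or 3, while without IR64 control replicate 1 there were 88 moving up and 23 down. It was 26, 7 and 298 without KP drought replicate 1, 2 or 3, and 3, 4 and 100 without IR64 drought replicate 1, 2 or 3.

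The genes with the lowest p in this test showed plain patterns in their libraries. LOC_Os03g16390 on chromosome 3 had 15.8, 21.3 and 14.7 CPM in KP drought leaves and 2.56, 1.85 and 2.71 CPM in IR64 drought leaves, against 3.27, 3.35 and 4.20 CPM in KP control leaves and 2.08, 3.51 and 2.94 CPM in IR64 control leaves. KP drought leaves alone stood apart, and the difference of log2 fold changes was 2.57 ± 0.33 (SE; adjusted p 0.00788 by edgeR). LOC_Os05g43170 on chromosome 5 had the same form, at 139.9 ± 33.2 CPM in KP drought leaves and 30.9 ± 2.97 CPM in IR64 drought leaves, against 37.8 ± 8.93 CPM in KP control leaves and 29.8 ± 2.99 CPM in IR64 control leaves (SD, n = 3 each). Its difference of 1.83 had an adjusted p of 0.0086 by edgeR, and 0.0508 without IR64 drought replicate 1.

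LOC_Os04g54830 on chromosome 4 went the other way. It averaged 8.86 ± 2.07 CPM in KP drought leaves and 28.8 ± 1.30 CPM in IR64 drought leaves, against 35 ± 4.01 CPM in KP control leaves and 34.7 ± 3.05 CPM in IR64 control leaves (SD, n = 3 each). The difference was −1.70 ± 0.22 (SE; adjusted p 0.00788 by edgeR). LOC_Os08g20570 on chromosome 8 changed sides: KP was higher in control leaves by 0.32 on the log2 scale (adjusted p 0.0218 by edgeR) and lower in drought leaves (−0.80, adjusted p 1.23e-05 by edgeR).

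Dro1-NIL was set against IR64 in drought leaves, so that the group means came from other libraries than those of KP control and IR64 control, although the spread was estimated over all of them. Of 22355 genes, 24 were called there (0.107%), with 18 higher (0.0805%) and 6 lower (0.0268%) in Dro1-NIL. The Dro1-NIL drought group had only 2 libraries, of 22.7 and 3.17 M reads, the latter the shallowest of the 17 fitted. The part of this in the small count was not tested. Of these 24, 21 were among the genes called between KP and IR64 in control leaves, and 20 of the 21 had the sign of KP. Of those 21, 15 lay on chromosome 9, all 15 with the sign of KP, between LOC_Os09g26530 and LOC_Os09g32620. This stretch held 278 tested genes, of which 71 (25.5%) were called between KP and IR64 in control leaves, close to the share of all tested genes. The position of Dro1-NIL drought leaves between IR64 drought leaves and KP drought leaves was taken on the log2(CPM + 0.5) scale, with IR64 at 0% and KP at 100%. Its median over the called genes was 64.1% in the stretch, 3.61% over the 273 called genes of the rest of chromosome 9 and 3.55% over the other chromosomes. The ends of the stretch were taken from the calls, so these values are a description.

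Outside chromosome 9 a few genes also went with KP. LOC_Os03g20140 on chromosome 3 had 25.8 and 22.5 CPM in Dro1-NIL drought leaves. It averaged 33.4 ± 3.02 CPM in Dro1-NIL control leaves and 29.7 ± 4.66 CPM in KP control leaves, against 0 reads in IR64 control leaves. LOC_Os12g15222 on chromosome 12 averaged 50.8 ± 6.98 CPM in Dro1-NIL control leaves and 85.1 ± 9.08 CPM in KP control leaves, against 1 read in IR64 control leaves. LOC_Os11g25210 on chromosome 11 had 1 read in Dro1-NIL control leaves and 0 in KP control leaves, against 2.16, 2.68 and 4.33 CPM in IR64 control leaves. LOC_Os04g54180 on chromosome 4 was the exception in sign. It averaged 17 ± 2.81 CPM in Dro1-NIL control leaves and 0.481 ± 0.300 CPM in KP control leaves, against 8.21 ± 0.695 CPM in IR64 control leaves, so that Dro1-NIL lay beyond IR64 (SD, n = 3 each).

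For the one-line genes Dro1-NIL control leaves went with IR64. They had at least 1 CPM for 214 of the 221 IR64-only genes and for 5 of the 396 KP-only genes, and 0 reads for 320 of the 396. Of the 22 KP-only genes on chromosome 9, 2 had at least 1 CPM in Dro1-NIL. Only LOC_Os09g26530 and LOC_Os09g26554 of the KP-only genes lay in the stretch of chromosome 9 described above. Both were called higher in Dro1-NIL than in IR64 in drought leaves. As the ends of the stretch were taken from such calls, this is a description.

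The one-line genes were then read in the control leaves of the other 37 cultivars, which played no part in choosing them. A gene was counted as read at a mean of at least 1 CPM. Few were peculiar to a line: 6 of the 396 KP-only genes and 4 of the 221 IR64-only genes were read in none of the 37. A KP-only gene was read in a median of 13 and an IR64-only gene in a median of 15 of the 37 cultivars. LOC_Os11g14544 was read in 19 of them, LOC_Os10g36260 in 5 and LOC_Os10g39130 in 21. LOC_Os08g08655 was read in 1, at 1.76 CPM, although it averaged 119.9 ± 22 CPM in Dro1-NIL and 150.5 ± 23.7 CPM in IR64 (SD, n = 3 each).

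Cultivars that read many of the KP-only genes read few of the IR64-only genes. WRC47 read 344 of the 396 KP-only genes (86.9%). WRC01, read here as Nipponbare, followed with 314 (79.3%), and Koshihikari had 307 (77.5%). In all, 7 cultivars read at least 70% of the KP-only genes, and they read 18.1% to 29.4% of the IR64-only genes. At the other end, 11 cultivars read 14.9% to 25% of the KP-only genes and 58.4% to 69.7% of the IR64-only genes. Between them lay 4 cultivars with 48.7% to 60.1% and 15 with 30.1% to 39.4% of the KP-only genes. The bounds of these classes were set after the values were seen.

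**Figure D5:**
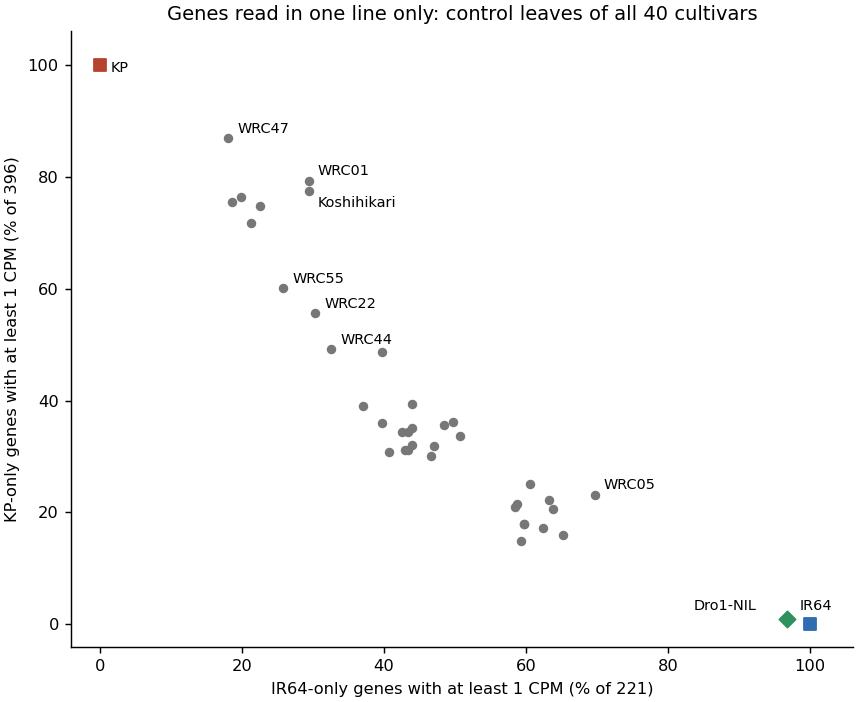
Share of the 396 KP-only genes (vertical) and of the 221 IR64-only genes (horizontal) with a mean of at least 1 CPM in control leaves of each of the 40 cultivars; KP and IR64 are squares, Dro1-NIL a diamond and the other 37 circles. KP and IR64 hold the corners by construction, WRC47, WRC01 and Koshihikari lie towards KP, and Dro1-NIL lies beside IR64.

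Over the full set of 5654 called genes the 7 cultivars nearest to KP were the same 7 that read the most KP-only genes. The 11 nearest to IR64 were the same 11 that read the fewest, and the order within each set differed. The 617 one-line genes are among the 5654 and the libraries are the same, so the rankings are not independent. On the log2(CPM + 0.5) scale with IR64 at 0% and KP at 100%, the median position over the called genes was 90.5% in WRC47, 89.5% in WRC51, 87.2% in WRC46, 85.5% in WRC01 and 83.8% in Koshihikari. It was 14.5% in WRC05 and 9.15% in WRC57, the lowest of the 37 cultivars, whose median was 44.1%. Dro1-NIL stood at 2.49%. The number of genes with a mean of at least 1 CPM was 18528 in KP and 18151 in IR64, which placed KP 13th and IR64 37th of the 40 cultivars. WRC01 had 18625 and Koshihikari 18564, and the 37 other cultivars ran from 17946 to 19133 with a median of 18457. Whether the counting of all cultivars on a single japonica genome moved these numbers was not tested.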

How the data were processed

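The deposited table gives raw read counts by the authors for 55986 gene identifiers in 239 libraries. The submitters' processing notes name STAR, featureCounts 2.0.0 and the build IRGSP-1.0. The annotation release, the strand setting and the treatment of reads with several positions are not given in the sources used here, so near-identical copies and overlapping genes may share or lose reads. Per the labels' protocols the RNA was polyA-selected and the libraries were made with a directional kit. Each column was matched to a sample through its library name, with 0 left over.

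The counts of KP, IR64 and Dro1-NIL (17 libraries, 6 groups) were fitted in edgeR 4.0.16 (R 4.3.3) with TMM scaling and filterByExpr at a minimum count of 10, followed by the quasi-likelihood test with 11 residual degrees of freedom and Benjamini-Hochberg adjustment over all 22355 tested genes. CPM values use the same scaling. The standard errors given are the size of the log2 fold change divided by the square root of the F statistic of its test. Like the fold change, they have no fixed meaning where a line has 0 reads. The common biological coefficient of variation was 0.187. The scripts were tested on simulated data. DESeq2 1.42.0, other scalings, filters, left-out libraries and a replicate block were alternatives. No replicates were duplicates of each other.

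The comparison and lists were chosen with earlier results of these data known. At most 2 genes per direction are named for each comparison. For control and for drought leaves these had the largest fold with at least 5 CPM in the higher line. Control genes also needed 10 reads in every library of the lower line. Drought genes were taken among those not past the adjusted p in control leaves. Also named were the most abundant called genes, the most abundant one-line genes and, for the interaction, the genes of lowest p. Dro1-NIL genes had the largest control fold between KP and IR64 among control-called genes also called for Dro1-NIL against IR64 in drought leaves, with no minimum CPM. Gene lists by symbol and cell type markers matched 0 identifiers and were not used.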

Additional observations from a re-analysis of the deposited data

Results flagged for a closer look

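In 5 named genes the difference between KP and IR64 was not the same in drought and in control leaves, by a test of that difference (edgeR quasi-likelihood test, Benjamini-Hochberg adjusted over 22355 genes). All but LOC_Os02g40130 had been named for the lowest p in this same test, so their passing follows from the choice. For LOC_Os02g40130 this test was not repeated with libraries left out. On the log2 scale, KP minus IR64 in drought leaves was higher than KP minus IR64 in control leaves by 8.21 for LOC_Os02g40130 (adjusted p 0.0396), where IR64 drought leaves had 0 reads, so that the fitted size is no bound. It was higher by 2.57 for LOC_Os03g16390 (adjusted p 0.00788) and by 1.83 for LOC_Os05g43170 (adjusted p 0.0086). The difference was −1.70 for LOC_Os04g54830 (adjusted p 0.00788) and −1.12 for LOC_Os08g20570 (adjusted p 0.00804). The last gene averaged 38.3 ± 0.205 CPM in KP drought leaves and 66.7 ± 6.42 CPM in IR64 drought leaves, against 63.2 ± 5.05 CPM in KP control leaves and 50.7 ± 0.212 CPM in IR64 control leaves (SD, n = 3 each).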

How the results depend on the processing

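The control count of 5654 genes was 4804 with the 6 control libraries alone, 5543 with DESeq2, 5652 with DESeq2's size factors in edgeR, 5849 with all cultivars' control libraries and 6772 with no filter on low counts. Between 83.4% and 99.8% of the 5654 genes were called again under these settings, the block and the left-out libraries, 0 of them with the other sign. It was 9672 with no fold minimum and 3512 at a fold of at least 4. Leaving out any of the 12 libraries of KP and IR64 in turn gave 5163 to 5674 genes in control leaves (5163 to 5553 for the 6 control libraries), and leaving out a drought library gave 5677 to 6314 in drought leaves.

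The interaction count of 89 was 289 with DESeq2, 958 with no filter, 383 without replicate 3 of every drought group (the shallow libraries, left out after seeing the data) and 3 to 298 with single libraries left out. The share of control-called genes with the same sign in drought leaves was 97.3% with no filter, 96.5% without the shallow libraries and 97.4% to 98.8% with single libraries left out. The share called again was 77.2%, 76.9% and 78.6% to 83.9% in the same order. With control and drought leaves fitted apart (added after seeing the data) the shares were 98.3% and 81.1%. The 21 genes shared with Dro1-NIL, 15 of them on chromosome 9, became 177 and 36 with no filter, and 15 to 29 and 11 to 18 with single libraries left out. For each of these, the cause was not tested.

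At 5 CPM in place of 1, one-line genes fell to 180 in KP and 85 in IR64. Of the original 396 KP-only and 221 IR64-only genes, the median cultivar had 73 and 47 at 5 CPM or more. With single libraries left out, one-line genes at 1 CPM numbered 409 to 453 in KP and 233 to 253 in IR64. Each left-out library removes 1 of the conditions that a gene has to meet. With no fold minimum the highest and lowest chromosome shares were 54% and 38.6%, and the window shares 69% and 21%. The highest window was 68% with windows of 50 genes, and the lowest 11% with windows of 200, each on another chromosome than with windows of 100. Among settings for the named genes, 294 kept direction and side of the threshold, 11 lost the call and 0 reversed.

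Same-numbered KP and IR64 libraries did not deviate together, with correlations of −0.033, −0.033 and 0.059 in control leaves and −0.171, −0.080 and −0.056 in drought leaves. Between control and drought leaves they were 0.114, −0.016 and 0.074 in KP and 0.368, −0.097 and 0.417 in IR64. Since not every pair exceeded 0.1, the numbers are not taken as pairs. With the replicate number as a block, the counts were 5680 in control leaves, 6224 in drought leaves, 77 up and 30 down for the interaction and 24 for Dro1-NIL. Depth is lowest in the drought replicates numbered 3; the part of depth in any call was not tested.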
